A study of Canis lupus familiaris with 8 samples.

Results

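The Eph receptors and their ligands, the ephrins, were followed in dog kidney epithelial cells by selecting the 10 listed genes EPHA1, EPHA2, EPHA4, EPHA7, EPHB2, EPHB3, EPHB4, EFNA1, EFNB1 and EFNB2 by symbol from a count table of 37952 genes. All 10 were in the table, and 9 had enough reads to be tested. EPHA7 had 0 counts in all 8 wells. The cells were the MDCK GII line, an established epithelial line from dog kidney, grown as monolayers on a collagen-coated elastic silicone membrane in serum-containing medium. In the stretch group (4 wells) an 18% in-plane strain, equal in both directions, was applied and held for 2 hours before lysis. The control group (4 wells) was not strained. The labels name no genetic change or drug in either group, and call the wells technical replicates, spread over several devices. P-values therefore measure the spread between wells, which may be technical.

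Eph receptors are receptor tyrosine kinases that meet their ligands on the surface of a neighbouring cell. A-class ephrins are tethered to the membrane by a lipid anchor and B-class ephrins span it, so that a contact can signal forward through the receptor and, for ephrins, in reverse through the ligand. In epithelia the pair EphA2 and ephrin-A1 sits at cell contacts, where receptor position depends on E-cadherin. Transcription of EPHA2 is a known output of the ERK pathway. The title of the series concerns force on E-cadherin and EGFR-ERK signalling, so the comparison asks whether transcripts of this contact-dependent family differed after strain.

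Each well held between 27047358 and 32478887 counts from polyA-selected libraries. The labelled cell type was matched by its markers, since 7 of 7 epithelial markers averaged at least 1 CPM (counts divided by the library size after TMM scaling). Their summed level was 4770 to 5346 CPM in control wells and 5043 to 5152 CPM in stretch wells. Summed fibroblast markers ranged from 1.80 to 4.22 CPM in control wells and 2.92 to 3.88 CPM in stretch wells, with COL1A2, COL3A1, LUM and DCN at 0. Endothelial markers summed to 1.54 to 2.30 CPM in control and 1.33 to 2.37 CPM in stretch wells, with none of the 5 at 0 in every well. Leukocyte markers summed to 4.03 to 6.09 CPM in control wells and 5.28 to 5.83 CPM in stretch wells, with PTPRC, CD3E and LYZ at 0.

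The monolayer used a short list of the family. Levels between genes were compared as CPM per kilobase of exon, averaged over the 8 wells. EPHA2 stood first at 53.2 and EPHA1, the founding receptor of the family, second at 42.2, and their ranges over the wells overlapped. EPHA2 was above EPHA1 in 6 of 8 wells, all but control replicates 1 and 2. The most abundant ligand was EFNA1 at 20.8 CPM per kilobase, close to EFNB1 at 19.99, and these ranges overlapped too. EPHA1 was above EFNA1 in every well with no overlap. EPHB2 and EPHB4, receptors of the B class, followed at 13.6 and 11.2 CPM per kilobase.

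A gap separated these 6 genes from the rest of the family. The next gene, EFNA3, was at 2.06 CPM per kilobase, 5.41-fold below EPHB4 and without overlap between wells. EFNB2, the transmembrane ligand that EphB4 binds, was at 1.80, EPHB3 at 0.923, and EPHA4, a receptor that binds ephrins of both classes, at 0.475 CPM per kilobase. Among all tested genes, EPHA2 lay above 87.9% and EPHA4 above 10.2% on this scale. The exon model of EFNB2 has 1002 bases and that of EFNB1 has 3320, so reads outside the shorter model were not counted for EFNB2.

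**Figure D1:**
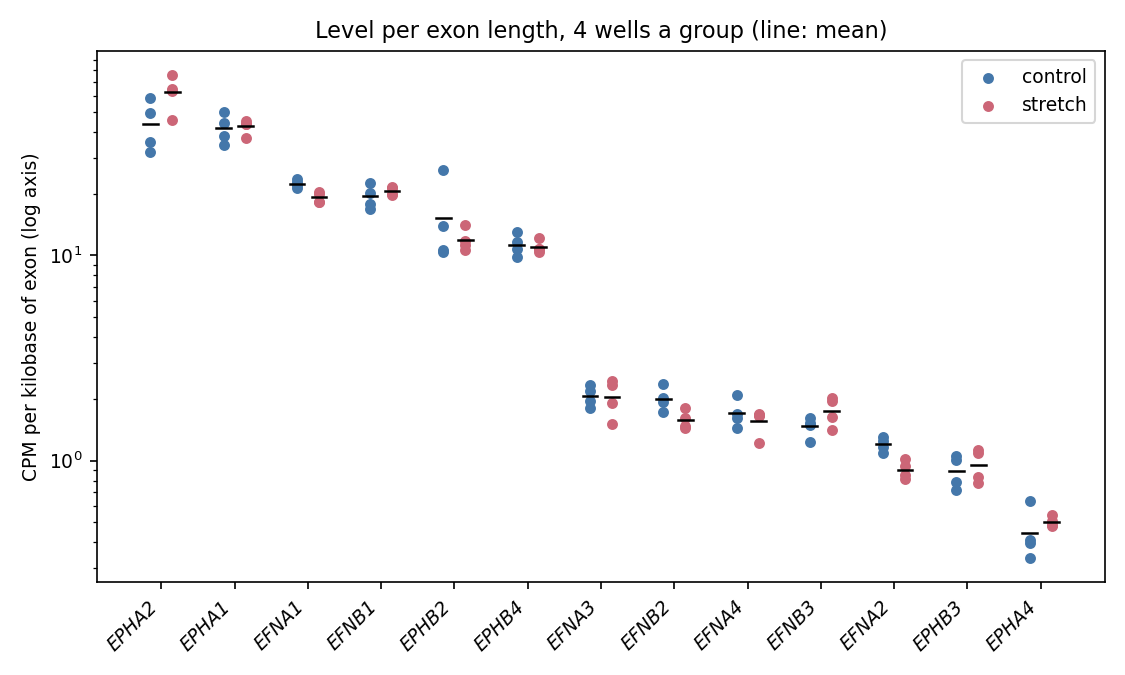
Levels of the 13 tested family genes in CPM per kilobase of exon on a log axis, with each point a well (4 control, 4 stretch) and each line a group mean. EPHA2 and EPHA1 lead at 53.2 and 42.2 over all wells, and a 5.41-fold gap lies between EPHB4 and EFNA3.

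Receptors best known from the nervous system had few or no reads. EPHA7 and the unlisted relatives EPHA3, EPHA5, EPHA6, EPHA8, EPHB1 and EPHB6 had 0 counts in every well. A count of 0 among the 237558216 counts of the 8 wells allows a level of up to 0.0126 CPM (3 counts over all wells, counting error only). EPHA10 had 1 count and EFNA5 had 15 counts over all wells. Of the 12 family genes outside the list, only the ligands EFNA2, EFNA3, EFNA4 and EFNB3 had enough reads to be tested.

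EPHA2, a receptor of A-class ephrins on chromosome 2 (81018093 to 81045632, plus strand), had more transcript after strain in each same-numbered pair. The 4 control wells had 127, 142, 232 and 197 CPM for replicates 1 to 4, and the stretch wells had 182, 258, 301 and 252 CPM. Stretch replicate 1, the lowest of its group, lay below control replicates 3 and 4, so the groups overlapped. The mean went from 175 ± 48.9 to 248 ± 49.1 CPM (SD, n = 4 each), a log2 difference of 0.51 ± 0.23 (SE) without a block, or 1.42-fold. This difference did not pass over all genes in edgeR's quasi-likelihood test (adjusted p = 0.999, unadjusted p = 0.0638), and its 95% interval ran from -0.038 to 1.05. As the RNA came from whole wells, more transcript per cell and more cells with EPHA2 transcript cannot be told apart here.

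In the control group, both of replicates 1 and 2 were below replicates 3 and 4 for EPHA2, whereas in the stretch group replicate 2 was above replicate 4. Control replicates 1 and 2 averaged 134 CPM and control replicates 3 and 4 averaged 215 CPM, while the stretch wells averaged 220 and 277 CPM in the same order. Within pairs the log2 differences were 0.52, 0.86, 0.38 and 0.35. With the replicate number as a block the difference was 0.53 ± 0.089 and the 95% interval 0.31 to 0.75, yet the adjusted p in edgeR was 0.0953 (unadjusted p = 0.00115). In the same blocked design, DESeq2 called EPHA2 (adjusted p = 3.98e-04, 0.53 ± 0.11, higher in 4 of 4 pairs) and limma-voom did not (adjusted p = 0.0886). DESeq2 called 1.48% of the genes it gave an adjusted p in that design. Without pair 2, which had the largest difference, the 3 remaining pairs gave 0.42 ± 0.047 and an adjusted p of 7.25e-05 in edgeR with the block, a fit that called 0.458% of genes. Without pair 1, 3 or 4, edgeR with the block did not call EPHA2 (0.53, 0.58 and 0.59, adjusted p = 0.198, 0.370 and 0.104). With a block of only 2 levels (replicates 1 and 2, replicates 3 and 4) the adjusted p of EPHA2 was 0.452 in edgeR.

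No listed gene was called by edgeR, without the block or with it. The background was 0% of 14571 tested genes without the block and 0.700% (102 genes) with it. At an unadjusted p under 0.05 there was 1 of 9 tested members without the block (EFNA1) against 3.97% of all genes, and 2 of 9 with it (EPHA2 and EFNA1) against 8.89%. Of the 9, 5 were higher and 4 lower after strain, with a median log2 difference of 0.028. For all tested genes the median was -0.0032 and 48.2% were higher.

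**Figure D2:**
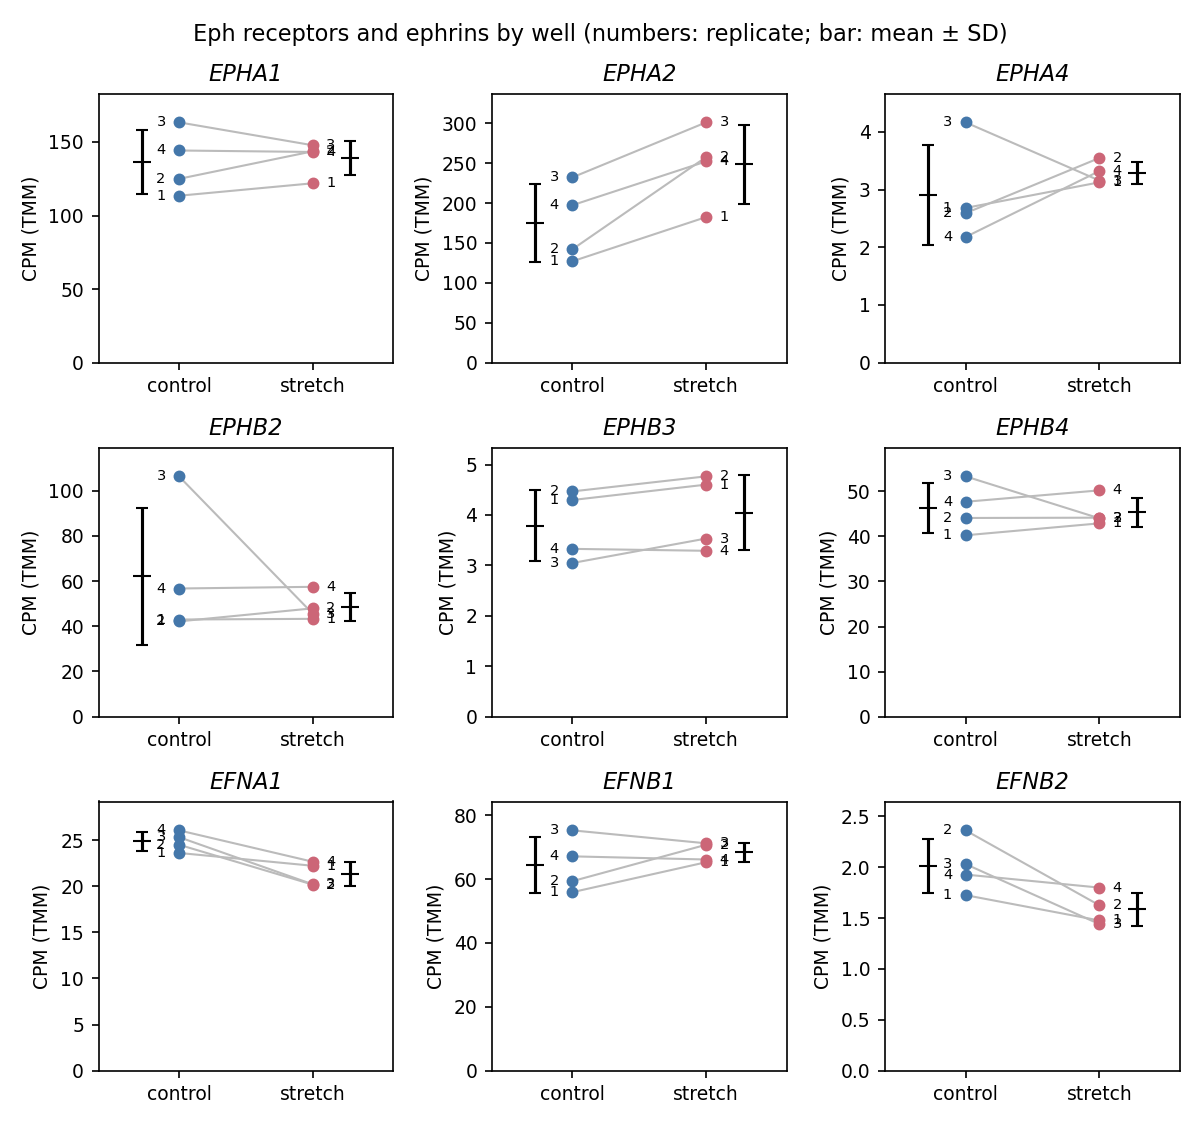
CPM of the 9 tested members in each well, one panel a gene, with grey lines joining wells of the same replicate number and bars for mean ± SD (n = 4). EPHA2 is higher in 4 of 4 pairs, EFNA1 and EFNB2 are lower in 4 of 4, and EPHB2 in control replicate 3 stands at 106 CPM above the other 7 wells.

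EPHA1, which binds ephrin-A1 as EphA2 does, differed little between the groups. It lies on chromosome 16 (6015778 to 6032015), and its control wells had 113, 125, 163 and 144 CPM against 122, 144, 148 and 143 CPM after strain. The stretch wells lay inside the control range, and 2 of 4 pairs were higher. The log2 difference was 0.028 with a 95% interval from -0.21 to 0.27 in edgeR, and from -0.071 to 0.14 with the block. ZYX, an abundant gene on the opposite strand, ends 80 bases from EPHA1 without overlapping it.

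EPHA4 on chromosome 37 (27555060 to 27698047) was a low-count gene, with 70 to 123 reads per well. Control wells had 2.68, 2.59, 4.16 and 2.18 CPM and stretch wells 3.12, 3.55, 3.16 and 3.32 CPM. The stretch wells lay inside the control range. The log2 difference was 0.18 with an interval from -0.24 to 0.60 (edgeR, adjusted p = 0.999), and 3 of 4 pairs were higher. Leaving out single wells moved it between 0.064 (without control replicate 4) and 0.41 (without control replicate 3).

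Among the B-class receptors, EPHB2 was set apart by 1 well. EphB2 and EphB3 are known from sorting of cells along the intestinal crypt, and EphB4 from vessel formation. EPHB2 on chromosome 2 (75819294 to 75943710) had 43.0, 42.2, 106 and 56.7 CPM in the control wells and 43.3, 47.95, 45.5 and 57.5 CPM in the stretch wells. Control replicate 3 was 2.25-fold above the mean of the other control wells (47.3 ± 8.17 CPM, n = 3), and the other 7 wells lay between 42.2 and 57.5 CPM. The log2 difference was -0.35 ± 0.31 with all wells (edgeR, adjusted p = 0.999) and 0.038 without control replicate 3, while 3 of 4 pairs were higher. Leaving out this well turned the direction for EPHB2.

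EPHB4 on chromosome 6 (8874020 to 8891770) differed little between the groups. The control wells had 40.2, 44.1, 53.3 and 47.7 CPM and the stretch wells 42.9, 44.1, 44.0 and 50.2 CPM. Its log2 difference of -0.032 had an interval from -0.22 to 0.15 in edgeR and was 0.043 without control replicate 3. EPHB3 on chromosome 34 (17580828 to 17600882) ranged from 3.05 to 4.47 CPM in control wells and from 3.29 to 4.77 CPM in stretch wells. Its difference was 0.095 with an interval from -0.29 to 0.48, and replicates 1 and 2 were above replicates 3 and 4 in both groups. Leaving out single wells moved the EPHB3 difference between 0.0054 (without control replicate 3) and 0.19 (without control replicate 2), and it was 0.011 without stretch replicate 2.

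Control replicate 3 also held the highest level of several other members. It was the highest of the 8 wells for EPHA1, EPHA4, EPHB2, EPHB4 and EFNB1, 5 of the 9 tested members, and the lowest for EPHB3. Over all 14571 tested genes this well was the highest for 18.1% and the lowest for 16.1%. Its part in the results was not tested beyond leaving it out. Without it, the log2 difference of EPHA2 was 0.68 (edgeR, adjusted p = 0.828), that of EPHA4 was 0.41 and that of EFNB1 was 0.17, and none of the 9 members was called.

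Among the ligands of the A class, EFNA1 and the unlisted EFNA2 were lower in 4 of 4 pairs, and none passed. EFNA1, the lipid-anchored ligand of EphA2 and EphA1, lies on chromosome 7 (42360084 to 42365344, minus strand). Its control wells had 23.6, 24.5, 25.3 and 26.1 CPM, and its stretch wells had 22.2, 20.2, 20.2 and 22.7 CPM. Every stretch well lay below every control well, which was so, in either direction, for 2.55% of all tested genes and for 1 of the 9 tested members. The mean went from 24.9 ± 1.06 to 21.3 ± 1.31 CPM (n = 4 each), a log2 difference of -0.22 ± 0.072 with a 95% interval from -0.38 to -0.067. It did not pass over all genes in edgeR (adjusted p = 0.999 without the block and 0.168 with it, unadjusted p = 0.00874 and 0.0033).

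The block made little difference to EFNA1, whose log2 difference was -0.22 both without and with the block, -0.18 within replicates 1 and 2 and -0.26 within replicates 3 and 4. The 4 pairs gave -0.088, -0.28, -0.33 and -0.20. The coefficient of variation of EFNA1 was 4.25% in control wells and 6.15% in stretch wells, where counting error alone gives 3.66% and 3.99%. For EPHA2 it was 27.98% and 19.8%, where counting error gives 1.38% and 1.17%.

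EFNA2, an A-class ligand outside the list on chromosome 20 (57980959 to 57995187), had the same direction at a far lower level. It had 2.68, 2.23, 2.40 and 2.55 CPM in control wells and 1.92, 1.66, 1.75 and 2.08 CPM in stretch wells, again without overlap. Its log2 difference was -0.41 on 45 to 82 reads per well, with an interval from -0.77 to -0.045, and did not pass (edgeR, adjusted p = 0.999). EFNA3 and EFNA4, which lie beside EFNA1 on chromosome 7, had differences of -0.025 and -0.13 with intervals that crossed 0, and each was higher in 2 of 4 pairs.

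Among the B-class ligands, EFNB1 was slightly higher and EFNB2 lower, and neither passed. EFNB1 on chromosome X (53478390 to 53491387) had 55.9, 59.3, 75.3 and 67.1 CPM in control wells and 65.3, 70.7, 71.2 and 66.1 CPM in stretch wells. The stretch wells lay within the control range, and the log2 difference was 0.085 with an interval from -0.096 to 0.27 (edgeR, adjusted p = 0.999). Leaving out single wells moved it between 0.026 (without control replicate 1) and 0.17 (without control replicate 3). Within replicates 1 and 2 it was 0.24 and within replicates 3 and 4 it was -0.046. EFNB3, outside the list, had a difference of 0.25 with an interval from -0.076 to 0.58.

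EFNB2 on chromosome 22 (55698309 to 55739598) had 1.73, 2.36, 2.03 and 1.93 CPM in control wells. After strain it had 1.48, 1.63, 1.44 and 1.80 CPM, lower in 4 of 4 pairs, although stretch replicate 4 was above control replicate 1. The log2 difference was -0.34 ± 0.19 with an interval from -0.75 to 0.062 (edgeR, adjusted p = 0.999 without the block and 0.729 with it). With 42 to 73 reads per well, counting error alone gives a coefficient of variation of 12.9% in control wells, and the observed value was 13.2%. By whole gene spans, EFNB2, EPHA4 and EPHB2 each overlap long non-coding genes on the opposite strand. These had 0, 8 and 2 counts in total over all wells. Overlap between counted exons was not examined. Since the strand setting of the counting is not stated, reads from any shared exon cannot be told apart.

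**Figure D3:**
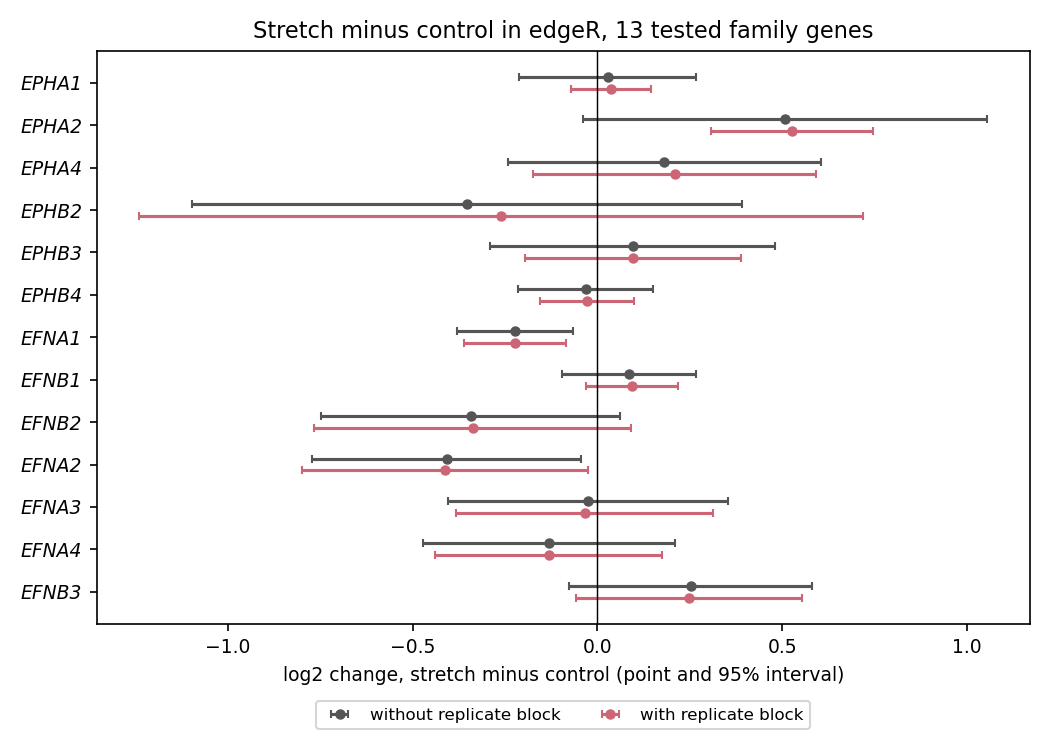
Log2 difference (stretch minus control) with 95% interval for the 13 tested family genes in edgeR, without (grey) and with (red) the replicate number as a block. The interval of EPHA2 narrows from -0.038 to 1.05 without the block to 0.31 to 0.75 with it, while that of EFNA1 hardly changes.

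Receptor and ligand transcripts were then set against each other inside each well, on the per-length scale, which removes library scaling. The ratio of EPHA2 to EFNA1 was 1.50, 1.62, 2.56 and 2.12 in control replicates 1 to 4. It was 2.30, 3.57, 4.17 and 3.11 in the stretch wells, higher in 4 of 4 pairs. Control replicate 3 lay above stretch replicate 1, so the groups overlapped. The mean went from 1.95 ± 0.487 to 3.29 ± 0.789 (SD, n = 4 each), or 1.69-fold, a difference larger than either SD. No test was made, since the genes were chosen with earlier results of these data known.

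Within the summed per-length level of all Eph receptors in the table, EPHA2 made up 36.1, 37.0, 39.2 and 41.2% in the control wells. In the stretch wells it made up 43.4, 48.8, 52.6 and 47.1%, each above every control well. EPHA1 made up 37.2 ± 2.80% and 33.0 ± 1.63% of the same sum (n = 4 each), lower in 4 of 4 pairs. The ratio of EPHA2 to EPHA1 went from 1.04 ± 0.128 to 1.46 ± 0.183, again without overlap. These differences in mean were larger than either SD, and no test was made on them. Both shares and the ratio contain EPHA2, so they largely restate its difference and are not separate results. EPHA1 itself had a mean of 136 CPM in control and 139 CPM in stretch wells, higher in 2 of 4 pairs.

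Of the B-class pairs, EPHB4 to EFNB2 was higher after strain in 4 of 4 pairs and EPHB2 to EFNB1 in 1 of 4. EPHB4 to EFNB2 was 5.69, 4.55, 6.40 and 6.03 in control wells and 7.08, 6.62, 7.45 and 6.80 in stretch wells, with no overlap between the groups. This ratio rests on the low counts of EFNB2, and the mean was 1.23-fold higher after strain. EPHB2 to EFNB1 was 0.764 ± 0.265 in control and 0.582 ± 0.0864 in stretch wells, and 1 of 4 pairs was higher. Leaving out control replicate 3 moved the fold of the EPHB2 to EFNB1 ratio from 0.762 to 0.919.

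**Figure D4:**
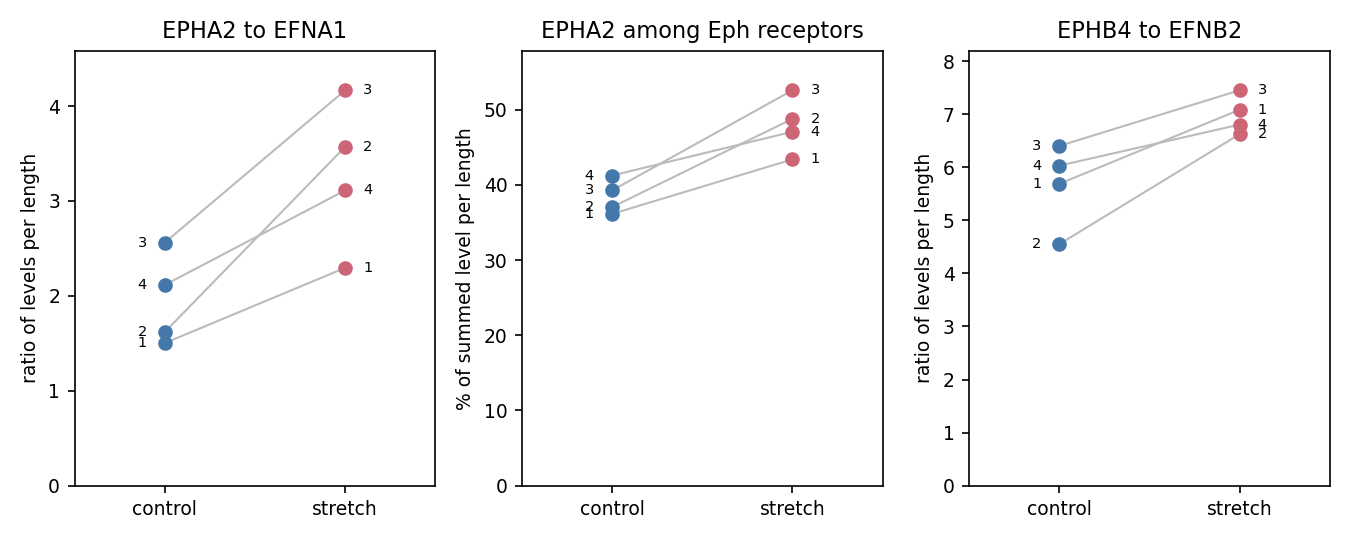
Ratio of EPHA2 to EFNA1, share of EPHA2 in the summed level of Eph receptors and ratio of EPHB4 to EFNB2 in each well, all from levels per exon length, with lines joining wells of the same replicate number. Each of the 3 quantities is higher in 4 of 4 pairs, and EPHA2 to EFNA1 goes from a mean of 1.95 to 3.29.

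Genes that carry the signal of Eph receptors into the cell were split between higher and lower much as all tested genes were (48.3% and 48.2% higher). Of 31 genes for forward signalling (guanine nucleotide exchange factors, adaptors and cytoplasmic kinases), 29 were tested, 14 were higher and 15 lower, and the median log2 difference was -0.015. In edgeR 0 were called without the block and 1 with it, against 0% and 0.700% of all genes, and 0 were called as lower. At an unadjusted p under 0.05 there were 4 without the block (13.8%, against 3.97% of all genes) and 7 with it (24.1%, against 8.89%). The gene called was DOCK4, a Rac exchange factor that acts downstream of EphA2, which went from 22.8 ± 3.10 to 28.6 ± 5.40 CPM and rose by 0.32 ± 0.063 in the blocked fit (adjusted p = 0.0201 in edgeR, higher in 4 of 4 pairs). Without pair 1 or pair 4, the adjusted p of DOCK4 in that fit was 0.252 or 0.0766, and with the block of 2 levels it was 0.295. ARHGEF16, an exchange factor that binds EphA2, had 47.98 ± 1.16 CPM in control and 48.5 ± 2.29 CPM in stretch wells.

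For ephrin-B reverse signalling, 8 of 9 listed genes were tested, 4 higher and 4 lower, with a median of 0.031. At an unadjusted p under 0.05 there were 2 without the block (25%, against 3.97% of all genes) and 2 with it (25%, against 8.89%). PARD6B, a scaffold of the Par polarity complex in the family that ephrin-B1 can bind, was the 1 gene called with the block, against 0.700% of all genes. Its control wells had 127, 139, 164 and 150 CPM and its stretch wells 145, 183, 208 and 170 CPM, a rise of 0.28 ± 0.043 with the block in 4 of 4 pairs (edgeR, adjusted p = 0.00311, against 0.381 with the block of 2 levels and 0.999 without a block). PICK1, a protein with a domain that binds Eph and ephrin-B tails, had a log2 difference of 0.19 without overlap between groups and was not called (adjusted p = 0.359 in the blocked edgeR fit). It was the 1 of 8 tested genes of the list without overlap, against 2.55% of all tested genes.

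Enzymes that cleave, ubiquitinate or dephosphorylate Eph proteins gave 0 calls in both edgeR fits among 12 tested of 13 listed, with a median of -8.9e-04. At an unadjusted p under 0.05 there were 0 without the block (against 3.97% of all genes) and 1 with it (8.33%, against 8.89%). This was the phosphatase gene PTPN1 (0.16 with the block, adjusted p = 0.353 in edgeR). The next smallest p belonged to RHBDL2, a rhomboid protease gene, and PTPN11, the gene of the phosphatase SHP-2, with blocked differences of -0.12 and -0.048. ADAM10, a protease that cleaves ephrin-A ligands and some Eph receptors, had 310 ± 2.77 CPM in control and 309 ± 18.5 CPM in stretch wells. The 9 genes for kinases that phosphorylate EphA2 on serine and for its junction partners had differences from -0.058 to 0.056, with 0 calls in both edgeR fits and 0 at an unadjusted p under 0.05 in either. Those with the smallest p were AKT1 (-0.060 with the block), RPS6KA1 (0.059) and CTNND1 (-0.017).

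EPHA2 and EPHA4 both belong to a 10-gene readout of MAPK pathway activity, of which 9 genes were tested here. Of these, 7 were higher and 2 lower, with a median log2 difference of 0.48. In edgeR with the block 1, DUSP6, was called (0.52 ± 0.069, adjusted p = 0.0061), against 0.700% of all genes. The adjusted p of DUSP6 was 0.0580 without pair 1, 0.619 with the block of 2 levels and 0.999 without a block. At an unadjusted p under 0.05 there were 1 of 9 without the block (11.1%, against 3.97% of all genes) and 6 of 9 with it (66.7%, against 8.89%), and 77.8% of the list was higher against 48.2% of all genes. In SPRY2 and PHLDA1 the differences were 0.48 and 0.54, close to the 0.51 of EPHA2. In SPRY4 and CCND1 they were 0.69 and 0.20, and in ETV4 and ETV5 they were -0.085 and -0.12. The counts of this list include EPHA2 and EPHA4, which were both higher, and EPHA2 is among the 6 with the block. The MAPK genes were known from earlier results of these data to be higher, so this is not independent evidence.

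**Figure D5:**
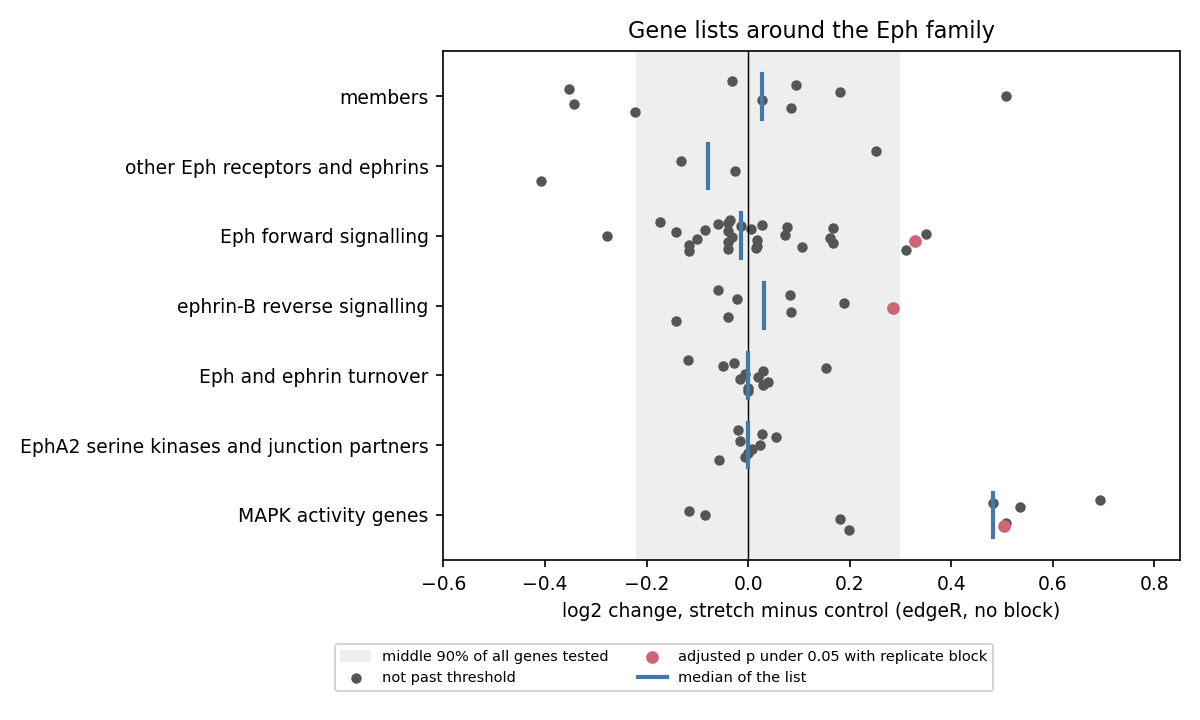
Log2 difference (stretch minus control, edgeR without the block) of each tested gene in 7 lists around the Eph family, with the list median in blue and the middle 90% of all tested genes shaded (-0.22 to 0.30). Genes in red passed with the replicate block (DOCK4, PARD6B and DUSP6), and the median of the MAPK list is 0.48 where the other 6 lists lie between -0.079 and 0.031.

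PHLDA1, ICAM1, EREG and NUAK2 were among the 5 genes whose well-to-well pattern was most like that of EPHA2, out of 11061 other genes with a mean of at least 5 CPM. Pearson's r of log2 CPM over the 8 wells was 0.983, 0.981, 0.981 and 0.979 in that order. The 8 wells differ both by strain and by replicate number, so r describes both at once. In the blocked fit ICAM1 and NUAK2 rose by 0.41 and 0.61 (edgeR, adjusted p = 0.00203 and 1.63e-04, with ICAM1 at 0.0513 without pair 1). With the block of 2 levels their adjusted p was 0.125 and 0.601, and without a block 0.999 for both. In the blocked fit PHLDA1 and EREG had differences of 0.59 and 0.75 and did not pass (adjusted p = 0.483 and 0.249).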

How the data were processed

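The authors deposited 1 table of raw exon counts per gene, with a column per well. Per the submitters' processing notes, FastQC 0.11.8, Trim Galore 0.6.5, STAR 2.7.3a, Subread and featureCounts were used. The genome build and strand setting are not given in the sources used here. All 37291 gene symbols that matched RefSeq's dog assembly UU_Cfam_GSD_1.0 had identical start and end positions there, and chromosome names were taken from it. The table had 0 columns of no sample.

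All genes were fitted in edgeR 4.0.16 (R 4.3.3; glmQLFit with robust estimation, glmQLFTest). TMM factors were used, and filterByExpr at its defaults (minimum count 10, minimum total 15) kept 14571 genes. Two-sided p-values were adjusted over all tested genes (Benjamini-Hochberg), with 0.05 as threshold. Standard errors and 95% intervals were derived from the quasi-likelihood F statistic. The scripts were tested on simulated counts. Wells of a group differed by more than sampling noise (chi-square per degree of freedom 5.56 to 26.8 over genes with at least 50 counts), so all 8 were kept.

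Both groups carry replicate numbers 1 to 4. Deviations of same-numbered wells from their group means correlated at 0.328, 0.108, 0.182 and 0.178 across genes, all over 0.1, so the numbers were taken to pair the wells. Only pair 1 correlated best with its own number, while 2 matched 1, 3 matched 4 and 4 matched 3 best. A split of replicates 1 and 2 from 3 and 4 would also give such values, so pairing by number is an assumption. A fit with the number as a block stands beside the unblocked one, and a block of 2 levels (replicates 1 and 2, replicates 3 and 4) was an alternative. The labels do not say that a number marks a shared device. The pattern likeness of EPHA2 used log2 CPM with a prior count of 2.

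Alternatives were DESeq2 1.42.0, limma-voom (limma 3.58.1), other scalings and filters, blocks of 4 or 2 levels, fits within replicates 1 and 2 or 3 and 4, and leaving out wells or pairs. DESeq2 and limma-voom with the block were added after seeing the data. The members and the lists were chosen with earlier results of these data known. Named genes were all members, genes of the other lists past the threshold in either edgeR fit or else among the 3 smallest p with the block, and the 5 genes most like EPHA2, of which 1 is not reported here. EFNA3, ARHGEF16, PICK1, ADAM10, SPRY2, SPRY4, CCND1, ETV4 and ETV5 were named after their values were seen. SDCBP and DUSP4 of the lists were not analysed here. Figures used matplotlib 3.10.9.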

Additional observations from a re-analysis of the deposited data

Results flagged for a closer look

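In 34 groups of 4 wells (CPM of the 13 tested family genes and the 4 ratios), 2 held a well far from the other 3 by the ratio of its gap to the whole range, where chance gives about 1 in 20, or 1.7 groups. EFNA4 had 3.50 CPM in stretch replicate 3 and 4.75 to 4.81 CPM in the other stretch wells. The ratio of EPHB2 to EFNB1 was 0.710 in stretch replicate 4 and 0.522 to 0.554 in the other stretch wells.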

How the results depend on the processing

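The number of genes called depended on the design more than the values of the members did. Against 0 in edgeR without a block (579 at an unadjusted p under 0.05), edgeR called 102 genes with the replicate block, 58 with the block of 2 levels, 51 within replicates 1 and 2, 25 within replicates 3 and 4 and 11 with no filter on low counts. DESeq2 called 40, and with the replicate block DESeq2 called 145 and limma-voom 100. Leaving out single wells gave 0 to 12 (12 without control replicate 3), and leaving out pairs with the replicate block gave 43, 67, 186 and 74 for pairs 1 to 4. Of the members, 1 was called by DESeq2 with the replicate block and 1 in edgeR with the block without pair 2, EPHA2 in both, and 0 in each of the other alternatives. EPHA2 stayed positive, from 0.37 to 0.71 over 13 alternatives and 0.39 to 0.68 without single wells, and EFNA1 stayed negative, from -0.26 to -0.18 and -0.25 to -0.19. Signs turned for EPHA1, EPHB4, EFNB1 and EPHB2: within replicates 1 and 2, EPHB2 was 0.099 and EPHB4 0.044, and within replicates 3 and 4, EPHA1 was -0.074 and EFNB1 -0.046. Without single wells, EPHA1 ranged from -0.048 to 0.13 (-0.0090 without control replicate 2 and -6.7e-04 without stretch replicate 3), EPHB2 from -0.50 to 0.038 and EPHB4 from -0.091 to 0.043. With the replicate block and without pair 2, EPHA1 was -0.015, and without pair 3, EPHB2 was 0.070 and EPHB4 0.055. The fold of EPHA2 to EFNA1 ranged from 1.53 to 1.88 without single wells. The cause of these shifts was not tested. For EFNB2, EPHA4 and EPHB3, with at most 138 reads per well, counting error alone gives a coefficient of variation of 9.21 to 14.6% within a group. The observed spread was larger for EPHB3 (18.4 to 18.6%) and for EPHA4 in control wells (29.9%).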

Other observations

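Control replicate 3, where EPHB2 reached 106 CPM, differed from the other control wells in further genes. Among 11062 genes with a mean of at least 5 CPM, EPHB2 ranked 10 by the ratio of control replicate 3 to the mean of the other control wells (2.25). The genes with the highest ratios were SEMA7A (3.52), LOC119863891 (3.36), RGS2 (2.92), KRT14 (2.47), ESM1 (2.45) and TNS4 (2.44). EREG, which encodes the EGFR ligand epiregulin and is among the genes most like EPHA2, ranked 9 with a ratio of 2.28, at 42.2 CPM against 18.5 CPM. SEMA7A encodes a lipid-anchored semaphorin, a guidance cue like the ephrins, and had 22.4 CPM in this well against 6.36 CPM in the other control wells. These genes were chosen after their values were seen.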
